A study of Equus caballus with 32 samples.

Results

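Toll-like receptors and their shared adaptor MYD88 were followed in blood samples that 32 mares of the Welsh Pony breed gave 30 days after weaning. The genes were TLR1 to TLR9 and MYD88, and their probes were the non-control probes that carry one of these 10 names on a single-colour Agilent array. Of 43987 probes on the array, 24 qualified, and they measured 9 of the 10 genes (among 15478 gene symbols on the array), since no probe carried the name TLR5. The mares formed 2 groups, 16 after brutal weaning and 16 after progressive weaning. The labels give neither the mares' ages, nor what the procedures involved, nor a group without weaning, so the comparison is between both ways of weaning only. Each mare gave 1 venous blood sample in a tube that stabilises RNA, and 1 array.

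Toll-like receptors are membrane proteins with which cells of the innate immune system recognise microbial molecules. TLR1, TLR2, TLR4, TLR5 and TLR6 sit at the cell surface and bind bacterial lipoproteins, lipopolysaccharide or flagellin, while TLR3, TLR7, TLR8 and TLR9 sit in endosomes and bind nucleic acids. All of them except TLR3 pass the signal on through MYD88, which recruits IRAK kinases and leads to NF-kappaB activation, and in blood many of these receptors are carried by neutrophils, monocytes and, for some, B cells and dendritic cells.

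The sequences below show what was measured, because several genes were read by more than 1 probe and some of those probes read nearly the same bases. A pair of TLR1 probes is given first, with the bases that both probes hold in capitals, a run of 40. They lie at chr3:81844672-81844731 and chr3:81844692-81844751 on the plus strand of EquCab1, the horse build that the file headers name.

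TLR1 A_69_P006327: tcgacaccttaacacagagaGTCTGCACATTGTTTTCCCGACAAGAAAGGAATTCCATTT
TLR1 A_69_P006326: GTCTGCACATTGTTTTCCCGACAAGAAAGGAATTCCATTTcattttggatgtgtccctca

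TLR6 was read by 1 probe, at chr3:81811137-81811196 on the plus strand, and the MYD88 probe with the lowest p between the groups lay at chr16:47107526-47107585 on the minus strand. Neither holds a part that another probe shares, so both are in lower case.

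TLR6 A_69_P084101: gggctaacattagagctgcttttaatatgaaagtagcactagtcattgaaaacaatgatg
MYD88 A_69_P126636: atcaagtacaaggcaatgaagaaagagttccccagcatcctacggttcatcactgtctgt

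For the other genes the first 30 bases of the brightest probe identify what was read. The 2 MYD88 entries are given together because the second probe starts 1 base after the first and shares 59 of its 60 bases.

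TLR2 A_69_P000236: tgtcatttgaggccttgcttactaaaacga
TLR4 A_69_P001452: cctccctcctctttaaggcagtttccttat
TLR7 A_69_P001277: aattgagaggaactgcatttctacccaggt
TLR8 A_69_P000491: ggcttgttttggcaaagtctgaaaaatgtg
TLR9 A_69_P001696: acttctataaccagaacttctgccggggcc
MYD88 A_69_P109030: accatgcacctatccccactttgatattgg
MYD88 A_69_P109029: ccatgcacctatccccactttgatattggg

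The TLR2 probe was placed at chr2:65578050-65578109 on the minus strand, the TLR7 and TLR8 probes at chrX:2767169-2767228 and chrX:2806915-2806974 on the plus strand, and the TLR9 probe at chr16:35503407-35503466 on the plus strand. The brightest MYD88 probe was placed at chr16:47105850-47105909 on the minus strand, and the TLR4 probe on unplaced sequence at chrUn:203175350-203175409 on the plus strand. Exon and UTR annotation of that build was not used here. The longest run shared by probes of different members was 9 bases, and no probe under another name shared 20 bases with a member probe.

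Signals are given as log2 of the processed intensity relative to the 75th percentile of the same array, so a level of 0 equals that percentile, and a level is compared only with the same probe on other arrays. That percentile lay between 340 and 646 units of intensity, and the share of spots well above background lay between 53.0% and 66.0% over the arrays. The arrays lay on 4 slides, and every slide carried 4 mares of each group. Defining transcripts of blood cells (HBB of red cells, CSF3R of neutrophils, CD14 of monocytes, CD79A of B cells and CD3E of T cells) were well above background on 32 of 32 arrays. One array, progressive 16, held 851 of the 2483 spot values that the extraction software marked as outliers. It also gave the highest level of its group for 9 of the 23 member probes tested, every TLR1 probe among them. That was not particular to it, since progressive 3 did so for 10 probes and brutal 14, in its own group, for 12.

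Of the 24 member probes, 22 stood well above background on all 32 arrays. One TLR1 probe, A_69_P006329, was above it on 31 arrays, and its value on the other array was dropped as an outlier, so its fit rests on 31 arrays. The single TLR3 probe, which reads the endosomal receptor for double-stranded RNA, was well above background on 4 brutal and 7 progressive arrays and was not tested. Its level ran from -7.35 to -2.70, so for TLR3 most mares gave no more than an upper bound.

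After progressive weaning no Toll-like receptor or MYD88 probe differed from brutal weaning at an adjusted p under 0.05. The count was 0 of 23 member probes, against 0% of all 26368 probes tested, with limma and Benjamini-Hochberg adjustment, and the lowest adjusted p of a member was 0.996. At an unadjusted p under 0.05 there were 3 member probes, all of MYD88 and all lower after progressive weaning. Of all probes, 2.75% had such a p, and 1.88% had it and were lower. The difference was below 0 for 17 of the 23 member probes, against 55.7% of all probes. The receptor differences were small beside the SD within the groups. Those of MYD88 came nearer to it, -0.21 beside SDs of 0.25 (brutal) and 0.30 (progressive) at the brightest probe. At A_69_P126636 the difference was -0.36 beside SDs of 0.43 and 0.38.

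**Figure D1:**
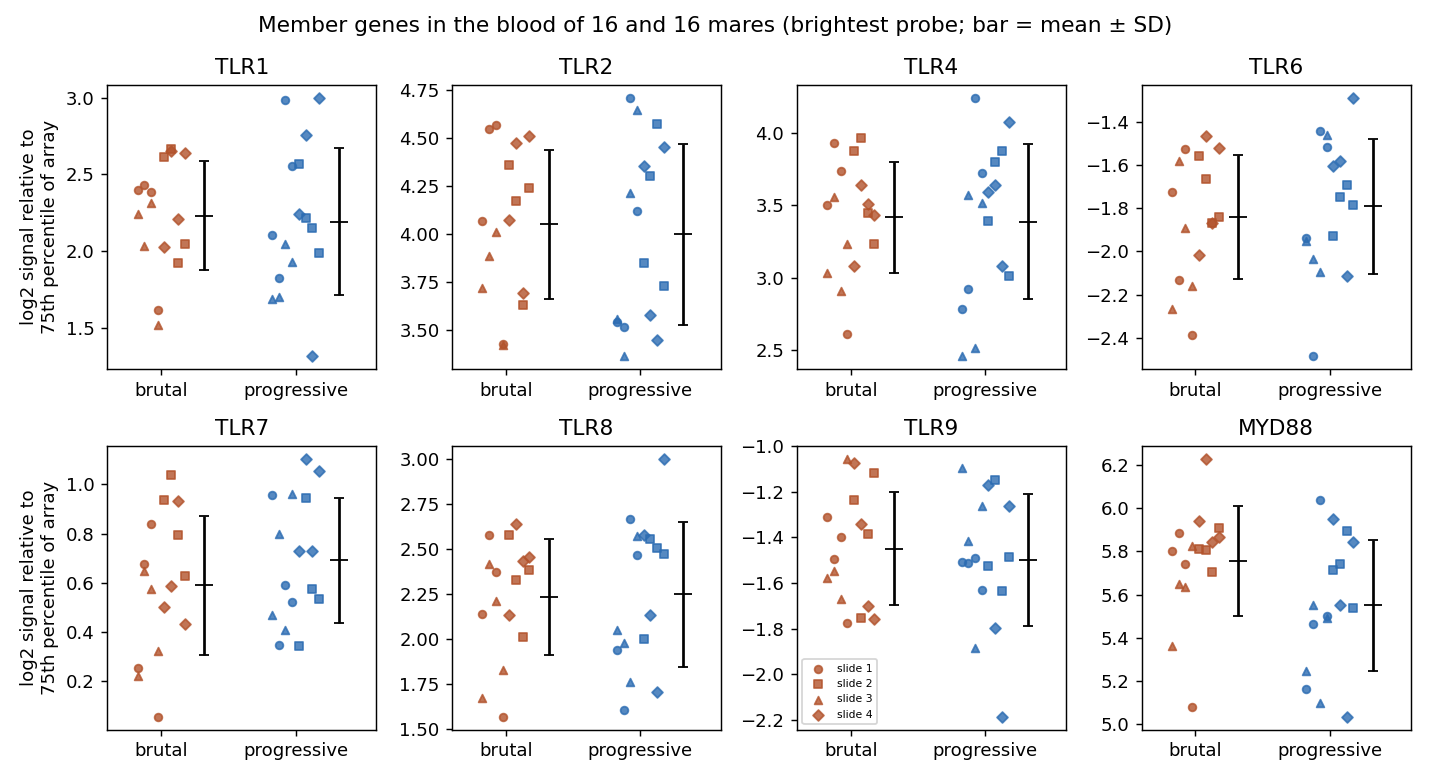
Level of 8 genes by weaning group. The y axis of each panel is the log2 signal of the gene's brightest probe relative to the array's 75th percentile, each point is 1 mare with its slide given by the symbol, and the bar is the mean ± SD of 16 mares. The groups overlap in every panel, and the largest shift of the mean is that of MYD88, from 5.76 after brutal to 5.55 after progressive weaning.

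Among the receptors of the cell surface, TLR2, which pairs with TLR1 or TLR6 to bind bacterial lipoproteins, ran from 3.42 through a median of 4.07 to 4.57 in the brutal group and from 3.36 through 3.98 to 4.71 in the progressive group. The progressive range enclosed the brutal one. The difference, progressive minus brutal, was -0.05 on the log2 scale (SE 0.15, 95% interval -0.36 to 0.25, n = 16 and 16, adjusted p = 0.996 by limma).

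TLR1, one of the partners of TLR2, was read by 6 probes. Its brightest probe, A_69_P003511, ran from 1.52 through a median of 2.28 to 2.66 in the brutal group and from 1.32 through 2.13 to 3.0 in the progressive group. The lowest mare and the highest mare of all were both in the progressive group, arrays 15 and 16, which lie on the same slide. The difference was -0.04 (SE 0.14, 95% interval -0.33 to 0.25), and those of the other 5 probes lay between -0.05 and 0.02.

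TLR6, the other partner of TLR2, ran from -2.39 through a median of -1.85 to -1.47 in the brutal group and from -2.48 through -1.77 to -1.29 in the progressive group. The groups overlapped over nearly their whole range. The difference was 0.05 (SE 0.11, 95% interval -0.16 to 0.26).

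TLR4, the receptor for lipopolysaccharide, was read by 3 probes, of which A_69_P001451 contains all 50 bases of the custom probe Oligo-353. The brightest, A_69_P001452, ran from 2.61 through a median of 3.47 to 3.97 in the brutal group and from 2.46 through 3.54 to 4.25 in the progressive group. At this probe the progressive mares reached further at both ends (SD 0.54 against 0.38), while at the other 2 probes the SDs of the groups were alike, 0.57 and 0.56 (brutal and progressive) at Oligo-353 and 0.49 and 0.50 at A_69_P001451. The differences of the 3 probes were -0.03, -0.09 and -0.13, with 95% intervals that together reach from -0.52 to 0.29.

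Among the endosomal receptors, TLR7, a receptor for single-stranded RNA, ran from 0.05 through a median of 0.61 to 1.04 in the brutal group and from 0.34 through 0.66 to 1.11 in the progressive group at its brighter probe. Its 2 probes had the lowest p among the receptors, 0.295 unadjusted for the brighter one. The differences were 0.10 (SE 0.10, 95% interval -0.09 to 0.30) and 0.08, below 0 on 1 of the 4 slides for both.

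TLR8, which also binds single-stranded RNA and lies next to TLR7 on the X chromosome, ran from 1.57 through a median of 2.35 to 2.64 in the brutal group and from 1.61 through 2.30 to 3.0 in the progressive group. The highest mare of all was progressive 16, and the other mares of both groups overlapped. The difference was 0.02 (SE 0.13, 95% interval -0.24 to 0.27).

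TLR9, the receptor for unmethylated CpG DNA, ran from -1.78 through a median of -1.45 to -1.05 in the brutal group and from -2.19 through -1.50 to -1.10 in the progressive group. Apart from 1 low mare, progressive 15, the groups covered nearly the same range. The difference was -0.05 (SE 0.10, 95% interval -0.24 to 0.14). Over all 15 receptor probes tested, the differences were below 0 for 9, and the 95% intervals together reached from -0.52 to 0.31, so larger shifts than these lie outside the interval of every receptor probe.

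MYD88, the adaptor, was read by 8 probes, and all 8 were lower after progressive weaning and lower on all 4 slides, against 9.77% of all probes tested that were lower on every slide. The brightest probe, A_69_P109030, ran from 5.08 through a median of 5.81 to 6.23 in the brutal group and from 5.03 through 5.54 to 6.04 in the progressive group. The groups overlapped over most of their range. The difference was -0.21 (SE 0.10, 95% interval -0.41 to -0.00, unadjusted p = 0.0457, adjusted p = 0.996 by limma), which is a ratio of 0.867. It was -0.12 under quantile scaling and in the deposited series table. On the 4 slides it was -0.09, -0.09, -0.27 and -0.38.

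The MYD88 probe with the lowest p, A_69_P126636, ran from -2.17 through a median of -1.32 to -0.48 in the brutal group and from -2.41 through -1.49 to -1.09 in the progressive group. Its difference was -0.36 (SE 0.14, 95% interval -0.64 to -0.07, unadjusted p = 0.0148, adjusted p = 0.996). The third with an unadjusted p under 0.05, A_69_P109029, differed by -0.22 (unadjusted p = 0.0373), and the other 5 lay between -0.25 and -0.15. The 8 probes are not 8 measurements of the difference, since they read the same 32 blood samples and 5 of them overlap in sequence. The 3 member probes with an unadjusted p under 0.05 became 1 under quantile scaling, 0 without slide 4 and 1 without slide 2. They became 1 without slide 3 and 7 without slide 1. There were 5 with slide as a block, also with the array row added, 7 with array weights and 4 in the deposited series table.

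**Figure D2:**
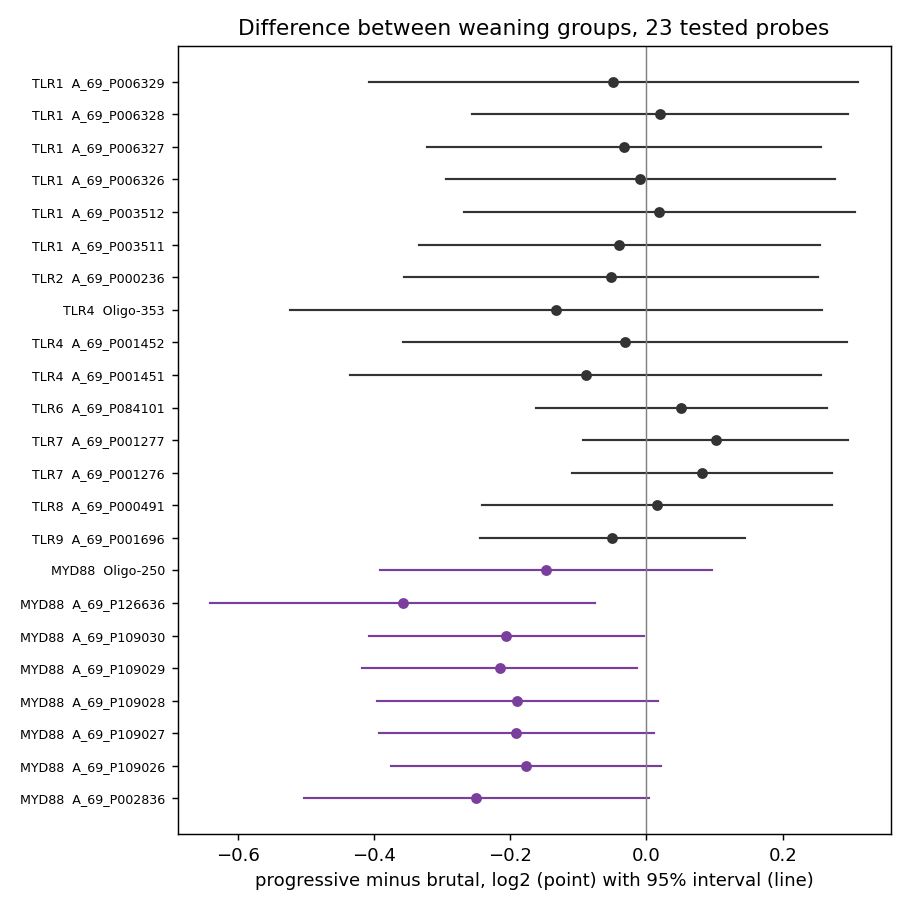
Difference between the weaning groups for the 23 tested probes. The x axis is progressive minus brutal in log2 units, points are limma estimates and lines their 95% intervals, with MYD88 in purple and the receptors in grey. The 8 MYD88 points lie left of 0, from -0.36 to -0.15, and the 15 receptor intervals all cross 0.

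Most marker levels had lower means after progressive weaning, as MYD88 did, among them those of neutrophils, platelets, monocytes and erythroid cells. A marker level is the mean over a list's genes of each gene's value, standardised over the 32 arrays. The neutrophil level ran from -1.17 to 0.90 in the brutal group and from -1.45 to 1.13 in the progressive group, with 14 of its 15 genes lower after progressive weaning, and its group means differed by -0.36. The platelet level differed by -0.59 (10 of 10 genes lower), with ranges of -0.65 to 1.43 and -1.71 to 1.07. The monocyte level differed by -0.18 (7 of 11 genes lower), with ranges of -1.70 to 1.17 and -1.04 to 0.71. Of all 9571 genes tested, 58.4% were lower, so the monocyte count lay near the share over all genes. The erythroid level differed by -0.47, the plasmacytoid dendritic cell level by -0.19 and the NK and cytotoxic level by -0.16. The conventional dendritic cell level differed by 0.31, while the B and T cell levels differed by 0.07 and 0.02. No gene of these lists passed an adjusted p of 0.05, and their part in the MYD88 difference was not tested. In whole blood fewer cells of a type and less RNA per cell cannot be told apart.

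The other genes of the pathway were taken from 7 lists. Of 85 listed genes, 62 were tested, 0 passed an adjusted p of 0.05 by limma, and 2 had an unadjusted p under 0.05, both lower after progressive weaning (2.58% of all 9571 genes had such a p, and 0% passed after adjustment). There were 43 lower and 19 higher, with a median difference of -0.06, beside -0.02 over all genes, of which 58.4% were lower. The lists and the members read the same mares, so these counts are a description.

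The 2 genes with an unadjusted p under 0.05 were IL1RN, the interleukin 1 receptor antagonist, and NFKB2, a subunit of NF-kappaB. The mean level of IL1RN was 4.52 ± 0.37 in the brutal group and 4.15 ± 0.43 in the progressive group (SD, n = 16 each), and limma gave -0.37 for the difference (SE 0.14, adjusted p = 0.996). That of NFKB2 was 3.63 ± 0.20 and 3.46 ± 0.20 (SD, n = 16 each), with -0.17 for the difference (SE 0.07, adjusted p = 0.996 by limma).

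For each list the 2 genes with the lowest p are given, as differences progressive minus brutal. Among the induced cytokines and enzymes, 8 of 10 tested were lower, and IL1B, which encodes interleukin 1 beta, differed by -0.32 (SE 0.16). Among the transcription factors, 7 of 10 were lower, and RELA, the p65 subunit of NF-kappaB, differed by -0.11 (SE 0.06). Among the inhibitors, 9 of 12 were lower, with TNIP1, which restrains NF-kappaB signalling, at -0.16 (SE 0.08) and NFKBIE at -0.12 (SE 0.07).

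In the remaining lists no gene had an unadjusted p under 0.05. Of the other receptor and co-receptors 5 of 7 were lower, with TLR10 at 0.16 (SE 0.10) and LY86, also known as MD-1, at -0.14 (SE 0.12). Of the folding and trafficking genes 3 of 4 were lower, with UNC93B1, the chaperone that brings endosomal receptors to their compartment, at -0.17 (SE 0.12) and CNPY3 at -0.09 (SE 0.09). Of the adaptors 2 of 5 were lower, TICAM1, the adaptor of TLR3 also known as TRIF, at -0.13 (SE 0.09) and TIRAP, which bridges MYD88 to TLR2 and TLR4, at -0.12 (SE 0.09). Of the kinases and ubiquitin ligases 9 of 14 were lower, with TBK1 at 0.08 (SE 0.07) and PELI1 at 0.12 (SE 0.13).

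The level of every member varied between single mares. The fold between the highest and the lowest mare was 2.54 for TLR2, 3.21 for TLR1, 3.46 for TLR4, 2.29 for TLR6, 2.07 for TLR7, 2.70 for TLR8, 2.19 for TLR9 and 2.29 for MYD88 at the brightest probe. Among all tested probes, whose median SD over the 32 arrays was 0.31, the SD of TLR4 stood at the 77.4th percentile and that of TLR2 at the 72.9th, and those of TLR7 and TLR9 at the 39.2nd and 38.2nd. The array brutal 4 gave the lowest level of its group for 17 of the 23 probes and also the lowest neutrophil level, -1.17, and monocyte level, -1.70, of that group. The array progressive 15 gave the lowest level for 14 probes and had the lowest neutrophil level of its group, -1.45. Its monocyte level, -0.37, was only the 6th lowest of that group. These counts are of probes, 8 of which read MYD88, and the share among all probes was not taken.

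Between the 4 slides, 0 of 23 member probes passed an adjusted p of 0.05 by limma, against 0.00758% of all probes. At an unadjusted p under 0.05 there were 4, against 6.8% of all probes. They were MYD88 A_69_P109027 (limma p = 0.0213), A_69_P109026 (0.0251) and A_69_P126636 (0.0382), and TLR1 A_69_P006328 (0.04996). MYD88 A_69_P126636 is also the member probe with the lowest p between the groups.

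Probes of the same gene followed each other over the mares. Among pairs that share no run of 10 bases, Pearson's r ran from 0.802 to 0.889 for the 18 MYD88 pairs and from 0.791 to 0.982 for the 11 TLR1 pairs, those with A_69_P006329 over 31 mares. The 2 such TLR4 pairs gave 0.735 and 0.848, and the TLR7 pair gave 0.967. Within single slides of 8 mares the MYD88 pairs reached down to -0.12. 

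Receptors and adaptor varied together across mares in 1 large block, with TLR7 and TLR9 partly outside it. Over 28 pairs of genes, 19 correlated at an adjusted permutation p under 0.05, all with a positive r, and 19 also did by Spearman's rho. Such values were also common among other genes: the weakest r that passed, 0.471, was reached with MYD88 by 16.3% of 9404 other genes, with TLR8 by 11.1%, with TLR4 by 10.9%, with TLR7 by 1.84% and with the other 4 members by 7.20% to 9.21%. All 15 pairs among TLR1, TLR2, TLR4, TLR6, TLR8 and MYD88 were among them, with r from 0.527 to 0.846, rho from 0.451 to 0.799 and an adjusted p of at most 0.00371 (100000 permutations). This grouping of 6 genes was chosen after the values were seen. Without the 2 mares farthest from the median, r ran from 0.450 to 0.797. Within slides of 8 mares, 12 of the 15 pairs were positive on all 4 slides.

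TLR6 and TLR8, a surface and an endosomal receptor, formed the closest pair, with r = 0.846 and rho = 0.790 (adjusted permutation p = 6.99993e-05 and 9.33324e-05). Only 0.0213% of all genes had a higher r with TLR6, and 0.202% with TLR8. Within the 4 slides r ran from 0.755 to 0.979, and it was 0.767 in the brutal and 0.910 in the progressive group. TLR2 and TLR8 had r = 0.770, within slides 0.548 to 0.935, and TLR4 and TLR8 had r = 0.743, within slides 0.311 to 0.954. The partners TLR2 with TLR1 and TLR2 with TLR6 had r = 0.632 and r = 0.665.

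Some pairs did not hold on every slide. On slide 3 r was -0.14 for TLR1 with TLR4, -0.23 for TLR1 with MYD88 and -0.27 for TLR2 with MYD88. The pooled values were 0.658, 0.565 and 0.595. Of all genes, 11.1% had a higher r with MYD88 than TLR1 did and 9.61% a higher one than TLR2. These were the 3 of the 15 pairs with a negative slide, and each was positive on the other 3.

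TLR7 correlated with TLR6 (r = 0.545), TLR8 (r = 0.524) and TLR4 (r = 0.520), with adjusted permutation p = 0.00263, 0.00394 and 0.00394, and not at that threshold with its other 4 partners. Within slides these 3 pairs were positive on all 4. TLR7 and TLR8, which are neighbours on the X chromosome, had r from 0.170 to 0.818 within slides. TLR9 correlated at the threshold with MYD88 alone of 7 genes, with r = 0.471 and rho = 0.398 (adjusted permutation p = 0.0100 and 0.0374). Without the 2 farthest mares that r was 0.339, and it ran from 0.115 to 0.794 within slides. Under quantile scaling it was 0.331 (adjusted permutation p = 0.0939), so that call was lost. With slide and group taken out, TLR9 also passed with TLR8 (r = 0.382, adjusted permutation p = 0.0445), beside 0.328 without that step.

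**Figure D3:**
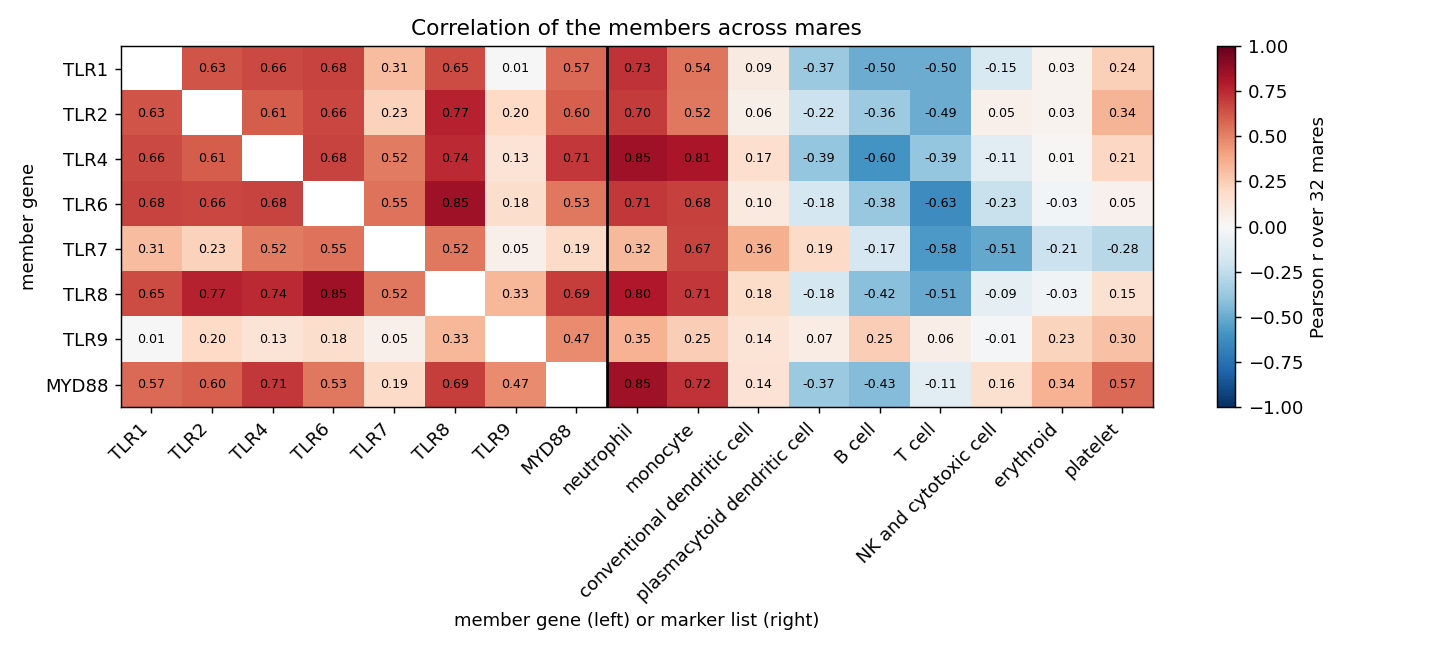
Pearson's r over 32 mares between 8 genes (left block) and between each gene and 9 blood cell marker levels (right block), with the r value in each cell and colour from -1 (blue) to 1 (red). TLR1, TLR2, TLR4, TLR6, TLR8 and MYD88 are red among themselves and with the neutrophil and monocyte levels, and TLR9 is pale throughout except with MYD88.

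The members also varied with marker levels of leukocytes. Of 72 combinations of 8 genes and 9 marker lists, 23 passed an adjusted permutation p of 0.05. With the neutrophil level, 6 of 8 genes did, all with a positive r. TLR4 had r = 0.849, MYD88 0.846, TLR8 0.800, TLR1 0.725, TLR6 0.709 and TLR2 0.699, all with an adjusted p of at most 0.00016. Of the other genes tested, 5.06% had an r with the neutrophil level of at least the lowest of these 6. Within slides TLR4 ran from 0.706 to 0.964 and MYD88 from 0.602 to 0.951. On slide 3 TLR2 fell to -0.03 and TLR1 to 0.136.

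With the monocyte level, 7 of 8 genes passed, all with a positive r. TLR4 had 0.814, MYD88 0.724, TLR8 0.710, TLR6 0.684, TLR7 0.674, TLR1 0.539 and TLR2 0.524, with an adjusted p of at most 0.00877. Of the other genes, 9.11% reached the lowest of these 7. Within slides TLR1 fell to 0.015 on slide 3, TLR2 to 0.168 on slide 4 and TLR8 to 0.169 on slide 2. The lowest value of TLR4 was 0.617. The neutrophil and monocyte levels themselves had r = 0.78 over the mares, so both lists read partly the same spread. TLR7 had r = 0.674 with the monocyte level (within slides 0.406 to 0.920) and 0.324 with the neutrophil level (adjusted permutation p = 0.142). Without the 2 mares farthest from the median of each level, r was nearly alike, 0.552 with monocytes and 0.520 with neutrophils. The difference between these r values was not tested. TLR9 passed with none of the 9 lists, with r = 0.346 for neutrophils, 0.248 for monocytes and 0.248 for B cells.

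**Figure D4:**
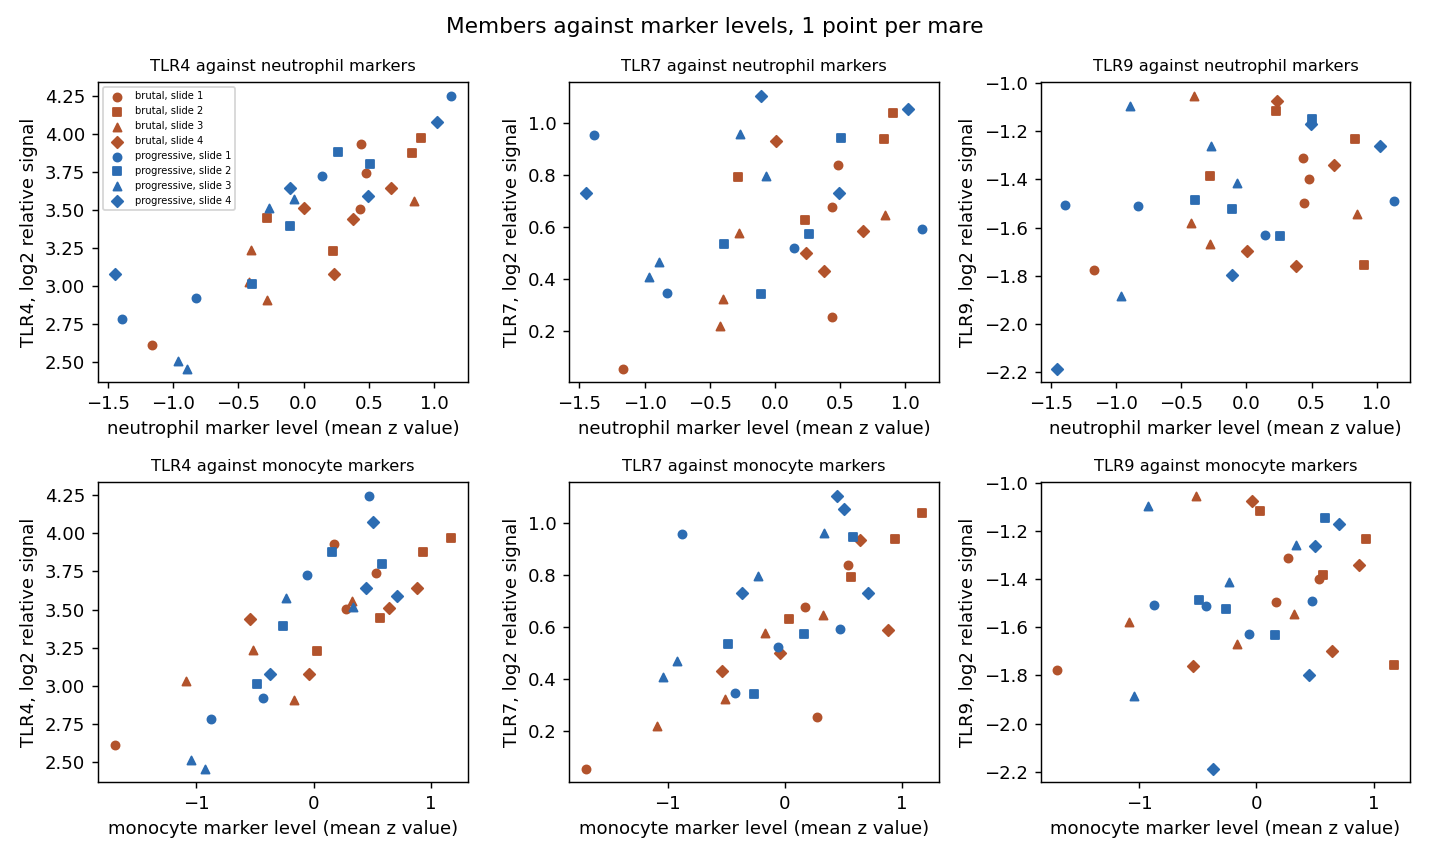
Levels of TLR4, TLR7 and TLR9 (y axis, log2 relative signal) against the neutrophil (top) and monocyte (bottom) marker levels (x axis, mean standardised value), 1 point per mare, coloured by weaning group with the slide as symbol. TLR4 climbs along both levels (r = 0.849 and 0.814), TLR7 along the monocyte level (r = 0.674), and TLR9 is scattered at every level.

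Lymphocyte levels ran the other way. These levels were themselves opposed to the 2 levels above: that of B cells had r = -0.50 with neutrophils and -0.53 with monocytes. That of T cells had r = -0.37 and -0.35, so these lists too read partly the same spread. With the T cell level, 5 genes passed, all with a negative r: TLR6 at -0.63, TLR7 at -0.58, TLR8 at -0.51, TLR1 at -0.50 and TLR2 at -0.49. Of the other genes, 2.25% were at least as negative as the weakest of these. TLR4 and MYD88 did not, at -0.39 and -0.11, but under quantile scaling both passed, at -0.54 and -0.47. Without the array progressive 16, TLR1 and TLR8 no longer passed with the T cell level (both -0.41, adjusted permutation p = 0.0633), nor did MYD88 with the B cell level (-0.43, 0.0579). With the B cell level TLR4 (-0.60), TLR1 (-0.50) and MYD88 (-0.43) passed, against 3.70% of the other genes at least as negative as MYD88, which did not pass by rho (adjusted permutation p = 0.0588). With the mean of a gene's tested probes, TLR4 with the B cell level (-0.41) and TLR1 with the T cell level (-0.42) no longer passed (adjusted permutation p = 0.0560 for both). With the NK and cytotoxic level only TLR7 passed, at -0.51, and 0.106% of the other genes were as negative.

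MYD88 was also related to the platelet level, with r = 0.569 and rho = 0.480 (adjusted permutation p = 0.00336 and 0.0222), and within slides 0.396 to 0.955. Of the other genes, 2.93% reached that r. It was 0.263 in the brutal and 0.663 in the progressive group, a difference that was not tested. Under quantile scaling r was 0.393 (adjusted permutation p = 0.0678). The platelet level itself had r = 0.44 with the neutrophil level and 0.26 with the monocyte level. No member passed with the erythroid level or with either dendritic cell level, although TLR1 with the plasmacytoid level did under normexp background (r = -0.467, adjusted permutation p = 0.0216). Dendritic cell lists held 5 and 3 tested genes, few for a level.

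The genes most like each member were found by Pearson's r over 32 mares among the brightest probes of all other genes, as a description that includes no test. TLR4 was nearest to C4BPA (r = 0.890), QPCT (0.877) and PLBD1 (0.863). TLR8 was nearest to P2RY13, a purinergic receptor (0.884), the transcription factor ETS2 (0.875) and B4GALT1 (0.872). TLR6 was nearest to LRMP (0.858), WDFY3 (0.849) and SLC2A3, a glucose transporter (0.830).

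TLR1 was nearest to REEP5 (0.843), BTBD10 (0.829) and NFE2L2 (0.825), and TLR2 to ARG2, an arginase (0.820), ANKFY1 (0.815) and PLEK (0.812). TLR7 was nearest to the transcription factor KLF4 (0.767), TBXAS1, the thromboxane synthase (0.748), and DLC1 (0.747). TLR9 was nearest to GPI, an enzyme of glycolysis (0.763), DPF2 (0.740) and PCMTD1 (0.715). MYD88 had the highest values, with PRR13 (0.959, within slides 0.948 to 0.975), GNB2 (0.935) and PAK3 (0.931). The median r with all genes lay between -0.12 for TLR6 and 0.11 for TLR9.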

How the data were processed

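RNA from whole blood of 32 mares was measured on single-colour arrays, 1 per mare, from 200 ng of total RNA labelled with Cy3. The deposited scanner files hold intensity per spot, extracted with Agilent Feature Extraction 10.10.1.1 per the file headers; coordinates are those of EquCab1 per the file headers. The deposited series table holds log2 values from the authors, of a normalisation not given in the sources used here; it served as an alternative. Groups came from the labels.

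Processed signals were scaled to the 75th percentile of non-control spots of the array and log2 transformed; outlier spots (2483) were left out, and spots of a probe were averaged. A probe was tested if well above background on at least 8 of 16 arrays of a group (26368 probes). Differences came from limma 3.58.1 (lmFit, eBayes; R 4.3.3), with group as the only term, two-sided, Benjamini-Hochberg adjusted. Correlations used each gene's brightest tested probe, with two-sided p from 100000 permutations adjusted over 28 pairs or 72 combinations. The number of arrays limits the precision. Genes were named from the files and RefSeq symbols. Named were every member, the 2 genes of lowest p per pathway list and the 3 genes most like each member. Members and lists were chosen with earlier results of these data known. The test was run on simulated data with independent noise for each probe and no slide effect. That setting does not copy the correlation between genes seen here. Alternatives covered scaling, background, filters, slides, array rows and 1 left-out array.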

Additional observations from a re-analysis of the deposited data

How the results depend on the processing

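No paired analysis was possible because the labels pair no mares across groups. No member probe passed an adjusted p of 0.05 under any alternative. All 152 alternative values of the 8 MYD88 probes were below 0, from -0.54 to -0.02, with an adjusted p of at least 0.871. These values are refits over the same mares or parts of them, so they are not separate measurements of the difference. Of the receptor differences several changed sign, all of them with intervals around 0. The number of probes that passed over the whole array was 0, and 1 on slide 4 alone (4 mares a group). Alternatives with the array row were chosen after seeing the data. The correlations that changed sign were all of a size of at most 0.218 and had not passed the threshold. The causes were not tested.

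Signs turned in the following cases. With the 75th percentile taken over probes detected on all arrays, the difference was TLR1 A_69_P006326 0.013. There r was TLR1 with TLR9 -0.084, TLR7 with TLR9 -0.032, TLR1 with erythroid -0.037, TLR2 with conventional dendritic cell -0.0021, TLR2 with NK and cytotoxic cell -0.018, TLR2 with erythroid -0.040, TLR4 with erythroid -0.071, TLR6 with platelet -0.046, TLR9 with conventional dendritic cell -0.0058, TLR9 with T cell -0.097, MYD88 with conventional dendritic cell -0.044, MYD88 with NK and cytotoxic cell -0.034. With array weights, the difference was TLR1 A_69_P003512 -0.032, TLR1 A_69_P006328 -0.023. In the deposited series table, the difference was TLR4 A_69_P001452 0.0017. There r was TLR1 with TLR9 -0.016, TLR2 with plasmacytoid dendritic cell 0.017, TLR2 with erythroid -0.079, TLR4 with erythroid -0.041, TLR6 with erythroid 0.048, TLR9 with T cell -0.083, MYD88 with NK and cytotoxic cell -0.028. With the mean of all tested probes of a gene, r was TLR4 with erythroid -0.037, TLR9 with NK and cytotoxic cell 0.0031. With normexp background, the difference was TLR1 A_69_P006328 -0.017. There r was TLR1 with TLR9 -0.054, TLR7 with TLR9 -0.0049, TLR1 with erythroid -0.034, TLR2 with erythroid -0.021, TLR4 with erythroid -0.019, TLR6 with erythroid 0.058, TLR9 with NK and cytotoxic cell 0.119. With quantile normalisation, the difference was TLR4 A_69_P001452 0.0046. There r was TLR1 with TLR9 -0.0077, TLR2 with conventional dendritic cell -0.0036, TLR2 with NK and cytotoxic cell -0.023, TLR2 with erythroid -0.104, TLR4 with erythroid -0.088, TLR6 with erythroid 0.011, TLR9 with plasmacytoid dendritic cell -0.0011, TLR9 with T cell -0.108, MYD88 with NK and cytotoxic cell -0.043. On slide 1 alone, the difference was TLR4 A_69_P001451 0.161, TLR1 A_69_P003511 0.161, TLR1 A_69_P006327 0.022, TLR1 A_69_P006329 0.022, TLR4 Oligo-353 0.254. On slide 2 alone, the difference was TLR2 A_69_P000236 0.014, TLR7 A_69_P001276 -0.262, TLR7 A_69_P001277 -0.251, TLR1 A_69_P003512 -0.058, TLR1 A_69_P006326 0.152, TLR1 A_69_P006327 0.140, TLR6 A_69_P084101 -0.055. On slide 3 alone, the difference was TLR2 A_69_P000236 0.186, TLR9 A_69_P001696 0.049, TLR1 A_69_P003512 -0.090, TLR1 A_69_P006329 0.232. On slide 4 alone, the difference was TLR8 A_69_P000491 -0.058, TLR4 A_69_P001452 0.180, TLR1 A_69_P006329 0.064. With slide and group taken out, r was TLR1 with conventional dendritic cell -0.096, TLR2 with conventional dendritic cell -0.048, TLR4 with conventional dendritic cell -0.021, TLR6 with conventional dendritic cell -0.045, TLR6 with erythroid 0.036, TLR8 with erythroid 0.0042, MYD88 with T cell 0.027. With slide, array row and group taken out, r was TLR1 with conventional dendritic cell -0.143, TLR2 with conventional dendritic cell -0.00095, TLR4 with conventional dendritic cell -0.036, TLR6 with conventional dendritic cell -0.0026, TLR6 with erythroid 0.014, TLR9 with T cell -0.0093, TLR9 with NK and cytotoxic cell 0.074, MYD88 with T cell 0.0096. When 1 slide or progressive 16 was left out, the differences ran over these ranges: TLR1 A_69_P003511 from -0.107 to 0.0092, TLR1 A_69_P003512 from -0.039 to 0.055, TLR1 A_69_P006326 from -0.072 to 0.027, TLR1 A_69_P006327 from -0.093 to 0.021, TLR1 A_69_P006328 from -0.039 to 0.026, TLR1 A_69_P006329 from -0.134 to 0.066, TLR2 A_69_P000236 from -0.131 to 0.0065, TLR4 A_69_P001451 from -0.173 to 0.029, TLR4 A_69_P001452 from -0.102 to 0.014, TLR4 Oligo-353 from -0.261 to 0.0065, TLR8 A_69_P000491 from -0.035 to 0.040. Without progressive 16, r of TLR1 with TLR9 was -0.046.

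Some calls changed side. TLR9 with MYD88 was no longer past the threshold under quantile normalisation (r = 0.331), the other 75th percentile (0.315) and the deposited series table (0.314). MYD88 with the B cell level missed it in 4 of the alternatives and MYD88 with platelets in 2. TLR4 with the T cell level passed in 4 and MYD88 in 2. TLR4 with the B cell level and TLR1 with the T cell level missed it with the mean of a gene's probes (-0.415 and -0.417). Calls gained under 1 or 2 alternatives were TLR8 with TLR9 (0.382 and 0.428), TLR1 with plasmacytoid dendritic cells (-0.467), TLR8 with B cells (-0.429) and TLR2 with platelets (0.432). Without progressive 16, TLR1 (-0.41) and TLR8 (-0.41) with the T cell level missed it. The array number and the signal over background limit small differences; TLR3 was mostly below it.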
